A study of Homo sapiens with 4 samples.

Results

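The genes described here are 10 genes known to be transcribed downstream of the mutated receptor kinase FLT3 and the transcription factor STAT5: the kinase genes PIM1, PIM2 and PIM3, the signalling inhibitors CISH, SOCS1, SOCS2 and SOCS3, the cytokine OSM, and the transcription regulators ID1 and BCL6. They were chosen by gene symbol, and all 10 were found among the 18417 genes measured, each with 1 probe set. Levels were measured on 4 Affymetrix arrays, 2 of MV4-11, a drug-sensitive human acute myeloid leukaemia line, and 2 of MV4-11R, its drug-resistant derivative, obtained by growing the parent for 3 months in rising concentrations of the tyrosine kinase inhibitor PKC412 (midostaurin). MV4-11 carries an internal tandem duplication of FLT3, which keeps the receptor active, and an MLL fusion, and MV4-11R comes from these cells. The labels mark EZH2 expression as high in the parent and low in the derivative. There is 1 resistant line, so what is particular to that derivation cannot be told apart from resistance, and the sources used here do not say whether PKC412 was present when RNA was taken or whether arrays of 1 line came from separate cultures. The p-values therefore rest on a spread between arrays that may be only technical. The MV4-11 arrays, replicates 1 and 2, are called P1 and P2 where single arrays are left out, and the MV4-11R arrays R1 and R2.

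STAT5 is a latent factor that is phosphorylated by receptor-linked JAK kinases, or by FLT3 with the duplication, and then moves to the nucleus and binds palindromes of the form TTCNNNGAA. Its targets act in both directions. PIM kinases, which are active as soon as they are translated, carry survival and growth signals forward, while CISH and the SOCS proteins bind phosphorylated receptors or JAKs and close the circuit as feedback inhibitors. BCL6, a zinc finger repressor best known from germinal centre B cells, recognises letters that overlap the STAT palindrome and in many cells is itself repressed by STAT5. Inhibitors of FLT3 are known to lower PIM, CISH and SOCS transcripts in cells that depend on the mutated receptor.

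The promoters of CISH and BCL6 are shown because they held the palindrome. In the values below BCL6 fell and CISH did not pass the test. In the RefSeq promoter table of build GRCh38.p14, 8 of the 10 genes matched, with 10 windows in all of 300 bases each (250 before the annotated start and 50 after it). TTCNNNGAA, which reads the same on either strand, was found in CISH, with 4 matches, and in 1 of the 2 windows of BCL6, also with 4. The other 6 genes with a window, which were PIM1, PIM2, PIM3, SOCS1, SOCS3 and ID1, had 0 matches in these windows. Among 35114 windows of this length, 7.66% held at least 1 match and 7 windows, or 0.02%, held at least 4. The core BCL6 motif TTCCTAGAA, searched on both strands and contained within TTCNNNGAA, occurred once each in CISH and BCL6, as TTCTAGGAA, and in 0.373% of windows. A match is a description of the letters and no evidence of binding. In the lines below capitals mark the matches, positions count from the annotated start, and both genes lie on the minus strand of chromosome 3. The stretches of BCL6 that pass the start overlap each other.
CISH, -250 to -202, chr3:50611976-50612024: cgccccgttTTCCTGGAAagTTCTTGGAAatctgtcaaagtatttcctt
CISH, -149 to -84, chr3:50611858-50611923: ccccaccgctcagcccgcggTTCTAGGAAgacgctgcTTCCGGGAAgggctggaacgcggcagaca
BCL6, -48 to -1, chr3:187745469-187745516: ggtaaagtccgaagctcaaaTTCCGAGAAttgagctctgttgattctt
BCL6, -10 to 19, chr3:187745450-187745478: gttgaTTCTTAGAActggggTTCTTAGAA
BCL6, 17 to 45, chr3:187745424-187745452: gaagtggtgatgcaagaagtTTCTAGGAA

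The 3 genes that passed did not all move in 1 direction. Of the 10 genes, 8 had a higher mean in MV4-11R and 2 a lower one, PIM3 (log2 difference -0.03) and BCL6. Among the 8, the arrays of the lines overlapped for PIM1, PIM2, CISH and SOCS3, so the direction of these is uncertain. BCL6 fell 3.96-fold, ID1 rose 2.09-fold and SOCS1 rose 1.57-fold, and 7 of the 10 genes did not pass the test. A gene was said to rise or fall at an adjusted p under 0.05 (limma, Benjamini-Hochberg over all genes), which 15.1% of all genes reached, 7.92% as rises and 7.13% as falls, against 3 of these 10. The median difference of the 10 genes was 0.22 log2 units, beside 0.01 over all genes, and the median absolute difference was 0.37, beside 0.17. Both arrays of MV4-11R lay on the same side of both arrays of MV4-11 for 5 of the 10 genes, while 55.6% of all genes were separated in this way.

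**Figure D1:**
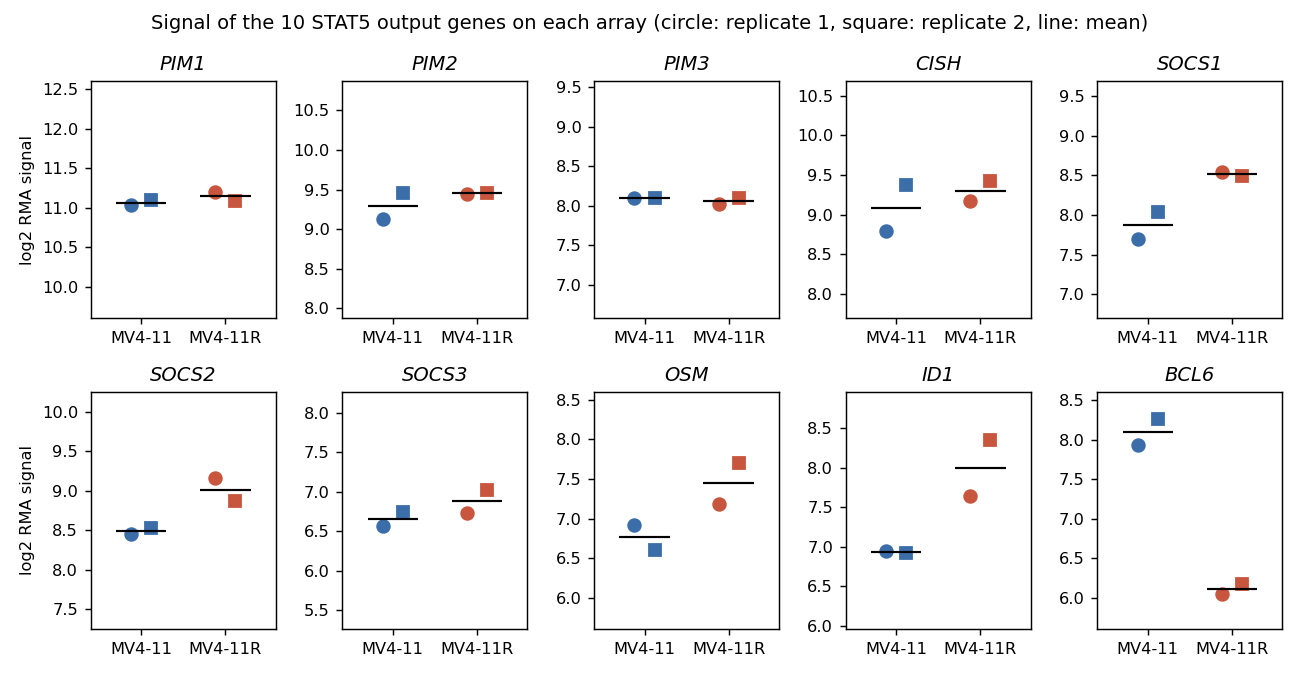
Log2 RMA signal (vertical axes, each spanning 3 log2 units) of the 10 genes on each array of MV4-11 (blue) and MV4-11R (red). Circles are replicate 1, squares replicate 2 and lines the mean of 2 arrays. BCL6 was lower on both MV4-11R arrays, ID1, SOCS1, SOCS2 and OSM were higher on both, and the arrays of the lines overlapped for the other 5 genes.

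The PIM genes encode serine/threonine kinases that phosphorylate proteins of survival, translation and the cell cycle, and none of the 3 passed the test. PIM1 had a log2 signal of 11.04 and 11.10 on the MV4-11 arrays and of 11.21 and 11.08 on the MV4-11R arrays. The MV4-11R arrays thus lay on either side of P2. The log2 difference (MV4-11R minus MV4-11, as for all differences here) was 0.08, with a standard error (SE) of 0.11, a 95% interval of -0.19 to 0.35 and an adjusted p of 0.733 in limma's fit. PIM2 read 9.13 and 9.46 in MV4-11 and 9.44 and 9.46 in MV4-11R, so that only P1 stood apart. Its difference was 0.16 (SE 0.14, 95% interval -0.18 to 0.50), and without P1 it was -0.0044. PIM3 had the smallest spread of the genes, at 8.10 on both MV4-11 arrays and 8.03 and 8.10 on the MV4-11R arrays. The PIM3 difference of -0.03 (SE 0.11, 95% interval -0.29 to 0.23) lay within the spread. The upper bounds for PIM1 and PIM3 were 0.35 and 0.23 and the lower bounds -0.19 and -0.29, so both intervals leave out a 2-fold change in either direction.

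CISH and the SOCS proteins carry an SH2 domain that docks on phosphotyrosine and a SOCS box that recruits a ubiquitin ligase. Among these 4 feedback inhibitors SOCS1 passed the test, and all 4 means were higher in MV4-11R. SOCS1, which inhibits JAK kinases directly, read 7.70 and 8.04 in MV4-11 and 8.54 and 8.49 in MV4-11R. Both resistant arrays were above both parental ones, and the parental arrays differed more from each other than the resistant ones did. SOCS1 rose by 0.65 log2 units (SE 0.14, 95% interval 0.30 to 0.997, adjusted p = 0.0339 in limma's fit). Its call was lost without P1 (difference 0.48, adjusted p = 0.128), without R1 (0.62, adjusted p = 0.102) and without R2 (0.67, adjusted p = 0.0690).

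SOCS2, a feedback inhibitor best known from growth hormone signalling, read 8.45 and 8.53 in MV4-11 and 9.16 and 8.87 in MV4-11R. The arrays of the lines did not overlap, and the difference of 0.52 (SE 0.14, 95% interval 0.19 to 0.85) narrowly missed the threshold at an adjusted p of 0.0537 in limma's fit. Leaving out R2, the lower of the resistant arrays, gave 0.66, while the difference was 0.37 without R1, 0.48 without P1 and 0.56 without P2. CISH, whose promoter is shown above, had the widest spread in MV4-11, at 8.79 and 9.37, and read 9.17 and 9.43 in MV4-11R. R1 thus lay between the parental arrays, and the difference was 0.22 (SE 0.21, 95% interval -0.29 to 0.73, adjusted p = 0.588 in limma's fit). Without P1 it was -0.07. SOCS3, which inhibits signalling through the gp130 receptor chain, read 6.56 and 6.74 in MV4-11 and 6.73 and 7.02 in MV4-11R. The arrays overlapped, with a difference of 0.22 (SE 0.14, 95% interval -0.12 to 0.57, adjusted p = 0.387 in limma's fit). It was 0.08 without R2 and 0.37 without R1.

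OSM encodes oncostatin M, a secreted cytokine of the interleukin 6 family whose gene is a STAT5 target in blood cells. It read 6.92 and 6.61 in MV4-11 and 7.19 and 7.70 in MV4-11R, higher on both resistant arrays, which were 0.52 log2 units apart. The log2 difference was 0.68 (SE 0.20, 95% interval 0.19 to 1.18, adjusted p = 0.0759 in limma's fit) and did not pass. Without R1 it was 0.94 and without R2 it was 0.43, each resting on 1 MV4-11R array.

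ID1 encodes a helix-loop-helix protein that lacks a DNA-binding region and holds E proteins away from DNA. It read 6.94 and 6.92 in MV4-11, and 7.64 and 8.35 in MV4-11R. Both resistant arrays were above both parental ones, but they differed from each other by 0.71 log2 units, the widest gap between arrays of 1 line among the 10 genes. ID1 rose by 1.06 (SE 0.23, 95% interval 0.50 to 1.62, adjusted p = 0.0313 in limma's fit). The difference was 1.42 without R1 and 0.71 without R2. Each of these 2 values rests on 1 MV4-11R array, so the gap between those arrays does not enter its error. The call was lost without P1 (adjusted p = 0.0720) or P2 (0.0735), where the difference stayed at 1.07 and 1.05.

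BCL6 read 7.94 and 8.26 in MV4-11 and 6.05 and 6.18 in MV4-11R. All parental values were more than 1 log2 unit above all resistant ones, and the line means were further apart than the arrays within either line. Its log2 difference was -1.99, with an SE of 0.14, a 95% interval from -2.34 to -1.64 and an adjusted p of 0.00159 in limma's fit. Of the 18417 genes, 69 had a lower difference than BCL6. The mean of 6.11 in MV4-11R lay under 6.26, a guide to background taken as the 95th percentile of 341 olfactory receptor genes, which are largely silent in blood cells. The signal compresses there, so the size of the fold is not exact. BCL6 was the only 1 of the 10 genes to pass under all 12 other ways of handling the data that were tried, with differences from -2.15 to -1.73.

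**Figure D2:**
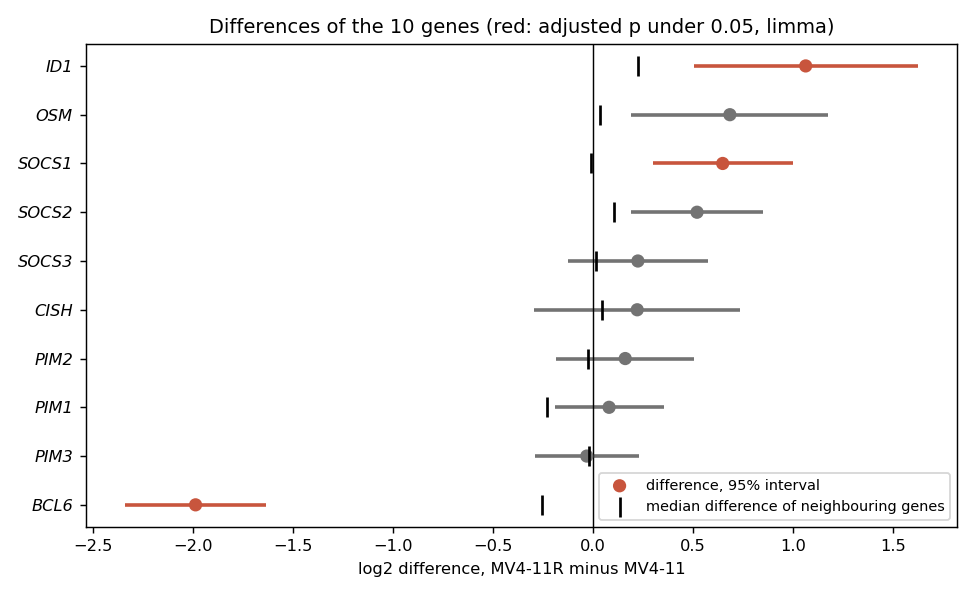
Log2 difference between MV4-11R and MV4-11 (horizontal axis) for each gene, with limma's 95% interval as a bar, and the median difference of up to 30 brighter-than-median genes on each side of it on the chromosome as a black tick. BCL6, SOCS1 and ID1, in red, passed at an adjusted p under 0.05. The intervals of SOCS2 and OSM also leave out 0, but these genes did not pass after adjustment over all genes.

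**Figure D3:**
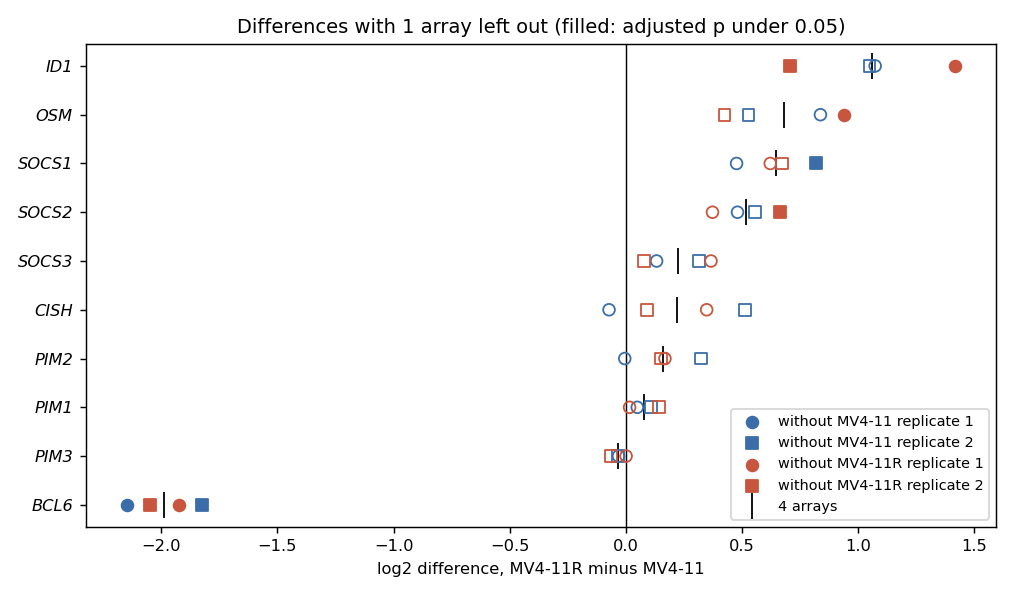
Log2 difference (horizontal axis) of each gene with 1 array left out, coloured by the line of that array, beside the value from 4 arrays (black tick). Filled symbols passed at an adjusted p under 0.05, in fits that hold no spread of the line with 1 array left. The BCL6 values lay between -2.15 and -1.83, those of ID1 between 0.71 and 1.42, and those of CISH between -0.07 and 0.51.

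Each gene was also set beside its neighbours in gene order. BCL6 lies on chromosome 3, and up to 30 genes on each side with a level above the median had a median difference of -0.26. The gene next to it, LPP, which encodes a focal adhesion protein, fell 2.25-fold (adjusted p = 0.00409 in limma's fit), from a mean of 10.09 to 8.92. The other 9 of its 10 nearest measured neighbours had differences from -0.08 to 0.18, although several of these read near background. With the median of its neighbours subtracted, BCL6 stood at -1.73 (adjusted p = 0.00244). ID1 lies on chromosome 20, where the median of its neighbours was 0.22. Subtracting it gave ID1 a difference of 0.84 (SE 0.23, adjusted p = 0.0630), which did not pass. BCL2L1, which encodes the survival protein BCL-xL and is itself a STAT5 target, lies 2 genes from ID1 and had a difference of 0.31 (adjusted p = 0.139).

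PIM1 lies on chromosome 6 among genes that were lower in MV4-11R, with a median of -0.23. MTCH1 fell 2.36-fold (adjusted p = 0.00291 in limma's fit) and FGD2, the gene next to PIM1, 1.82-fold (adjusted p = 0.0320). Set against these neighbours, PIM1 had a difference of 0.31 (adjusted p = 0.125) in place of 0.08. SOCS1, on chromosome 16, had a median of -0.01 around it and kept its call with that median subtracted (0.66, adjusted p = 0.0328). CIITA, the regulator of MHC class II genes, lies 3 genes from SOCS1 and fell 1.65-fold (adjusted p = 0.0156). SOCS2 had a neighbour median of 0.11, and subtracting it gave 0.41 (adjusted p = 0.0993). For PIM2, PIM3, CISH, SOCS3 and OSM the median of the neighbours lay between -0.02 and 0.04. Single genes among the 5 on each side still passed (adjusted p from 0.0102 to 0.0475 in limma's fit). TFE3 near PIM2 (-0.76), SYNGR2 (-0.61) and TIMP2 (-1.42) near SOCS3, and CASTOR1 (-1.06) and TBC1D10A (-1.05) near OSM fell. MOV10L1 near PIM3 rose (0.53), and none passed around CISH.

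**Figure D4:**
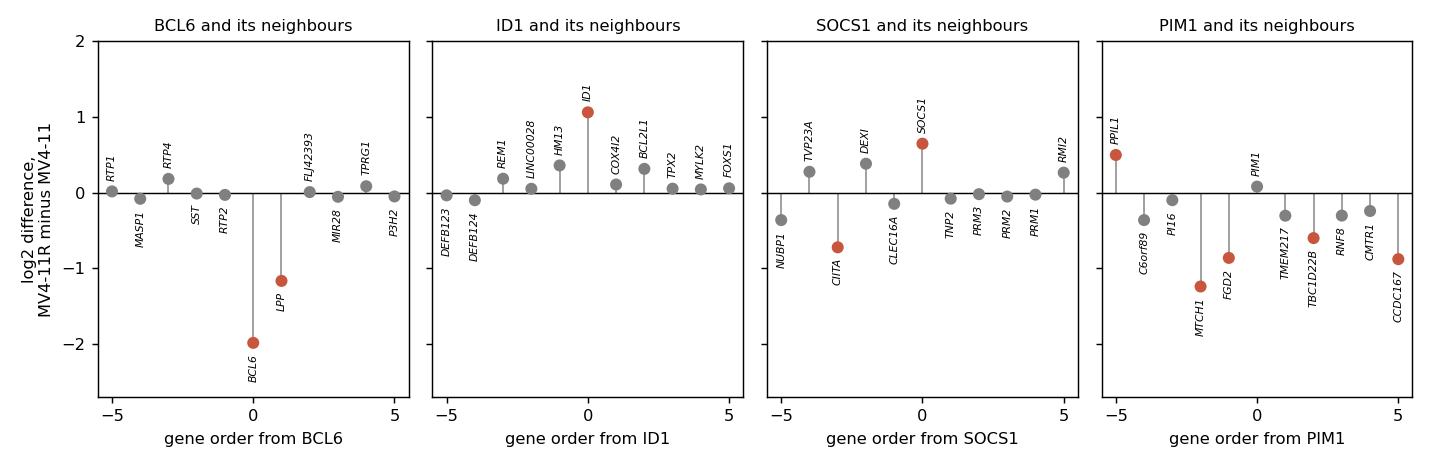
Log2 difference (vertical axis) of BCL6, ID1, SOCS1 and PIM1 and of the 5 measured genes on each side, in gene order (horizontal axis). Red points passed at an adjusted p under 0.05. Among the neighbours of BCL6 only LPP passed, at -1.17, and the others had low signals in which a fall could hardly be seen. Of the 10 neighbours of PIM1, 5 passed, 4 of them as falls, beside 15.1% of all genes.

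The genes above these outputs in the pathway went different ways. FLT3, the receptor, had a log2 difference of -0.93 (11.76 to 10.83, adjusted p = 0.00526 in limma's fit), a fall. STAT5A averaged 8.82 ± 0.04 in the parent and 8.71 ± 0.28 in the derivative (SD, n = 2), a difference of -0.11 (95% interval -0.49 to 0.27). STAT5B had 9.61 ± 0.06 and 9.61 ± 0.08 (SD, n = 2), with a 95% interval from -0.27 to 0.27. STAT5A and STAT5B are near-identical neighbours, so their probe sets may share signal. Of 11 measured genes for the receptor, its ligand, JAKs and STATs, 1 rose, 2 fell and 8 did not pass, with a median difference of -0.11. Beside this list and those below, 7.92% of all genes rose and 7.13% fell, with a median difference of 0.01. JAK3, the kinase paired with the common gamma chain of cytokine receptors, rose 2.84-fold (adjusted p = 0.00224), from 6.12, under the background guide, to 7.63. JAK1, which serves many cytokine receptors, fell 1.52-fold (adjusted p = 0.0205), a call that was lost without P1 (0.0736), P2 (0.0791) or R1 (0.0775).

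Other genes known as STAT5 targets included 3 rises, 0 falls and 11 that did not pass among 14 measured, with a median difference of 0.26. An unadjusted p under 0.05 in limma's fit was reached by 28.6% of all genes and by 7 of the 14, of which 6 were higher and 1, IL2RA, was lower. Some of these genes were listed knowing that they changed in these data. The cyclin CCND2, which drives cells through G1, rose 2.13-fold (10.50 to 11.59, adjusted p = 0.00404 in limma's fit) and its partner kinase CDK6 rose 2.04-fold (adjusted p = 0.0146). CCND1 rose 1.73-fold (adjusted p = 0.0307), but not without P1 (0.0976), P2 (0.0638) or R2 (0.0582). MYC had a difference of 0.26 (adjusted p = 0.170), which was -0.007 (adjusted p = 0.973) with the median of its neighbours subtracted, and the survival gene MCL1 one of 0.25 (adjusted p = 0.350), and these were chosen after their values were seen, as was IL2RA. IL2RA, the interleukin 2 receptor chain that STAT5 induces in lymphocytes, had the lowest difference of the list at -1.18 (SE 0.30, adjusted p = 0.0511). Its arrays read 7.53 and 7.65 in MV4-11 and, further apart, 5.92 and 6.90 in MV4-11R. The IL2RA difference was -0.69 without R1 and -1.67 without R2, each resting on 1 MV4-11R array.

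Brakes on the pathway other than the SOCS genes above included 2 rises and 3 falls among 15 measured, with a median difference of 0.07. The phosphatase PTPN2 rose 1.59-fold and the SUMO ligase PIAS2 1.67-fold. The ubiquitin ligases CBLB and CBL, which mark activated receptors for degradation, fell by 0.93 and 0.59 log2 units, and the phosphatase PTPRC (CD45) fell 1.75-fold (adjusted p for these 5 from 0.0204 to 0.0424 in limma's fit). Calls on these 5 genes were lost without P2 or R1, and for all but CBLB also without P1, at an adjusted p between 0.0521 and 0.122. The CBLB call was also lost with the neighbours' median of -0.36 subtracted (-0.56, adjusted p = 0.0898). PTPN2 and PIAS2 lie on chromosome 18, where neighbours had medians of 0.39 and 0.69, and neither passed with these subtracted (0.28, adjusted p = 0.306, and 0.05, adjusted p = 0.856). SOCS4, SOCS5, SOCS6 and SOCS7 had differences between -0.10 and 0.14.

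Around OSM, 0 of 8 measured relatives and receptor chains passed in limma's fit, and 2 did at an unadjusted p under 0.05, beside 28.6% of all genes. IL6ST, the shared receptor chain gp130, had the lowest difference, -0.72 (SE 0.19, adjusted p = 0.0550), and passed under 7 of the 12 alternatives, at an adjusted p from 0.0101 with the replicate block to 0.0464 among genes above the 25th percentile of level. OSMR, the specific receptor chain, read 4.45 and 4.24, under the background guide in both lines. Around ID1, 15 measured genes for the other ID proteins, E proteins and BMP signalling, the classical inducer of ID genes, included 1 rise and 1 fall. SMAD1, a BMP-activated factor, rose 2.47-fold (adjusted p = 0.0178), from 5.87, under the background guide, to 7.18, and its paralogue SMAD5 fell 1.78-fold (adjusted p = 0.0230). The SMAD5 call was lost without P1 (0.0579), P2 (0.0694) or R1 (0.0523). ID2 and ID3 had differences of -0.39 and -0.04 (adjusted p = 0.303 and 0.888).

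Genes known to be repressed by BCL6 moved both ways. Of 11 measured, 2 rose, 3 fell and 6 did not pass, with a median difference of -0.15. CCND2 rose as given above and the chemokine CCL3 rose 1.58-fold (adjusted p = 0.0295 in limma's fit). PRDM1, the plasma cell factor that BCL6 holds down in B cells, fell 2.20-fold (8.37 to 7.24, adjusted p = 0.0232), the adhesion receptor CD44 fell 1.72-fold (adjusted p = 0.0164) and the receptor GPR183 fell 2.09-fold (adjusted p = 0.00458). GPR183 lies on chromosome 13 among genes with a median of -1.06, and its difference was 0.0018 with that median subtracted. Its MV4-11R mean of 6.03 lay under the background guide, so that fold is not exact. Calls were lost for PRDM1 without P1 (0.0507) or P2 (0.0602), for CD44 without P1 (0.0636) or R1 (0.0537), and for CCL3 without P1 (0.0715), P2 (0.103) or R1 (0.0938). CCL3 also did not pass with the median of its neighbours subtracted (0.45, adjusted p = 0.0881).

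Of 9 corepressors and relatives of BCL6, 1 rose, 2 fell and 6 did not pass, with a median of -0.36. The class IIa deacetylase HDAC5 fell 1.58-fold (adjusted p = 0.0166 in limma's fit), HDAC3 fell 1.36-fold (0.0450), and the related repressor ZBTB16 (PLZF) rose 1.49-fold (0.0348). With 1 array left out these calls were lost for HDAC5 without P2 (0.0737) or R1 (0.0610), for ZBTB16 without P1 (0.0978), P2 (0.117) or R1 (0.120), and for HDAC3 without any 1 of the 4 arrays (0.0784 to 0.176). ZBTB16 also did not pass with the median of its neighbours subtracted (0.44, adjusted p = 0.0779). Of 10 PIM substrates and survival genes, 1 rose, 1 fell and 8 did not pass. CDC25A, a phosphatase that activates CDKs, rose 2.84-fold (7.57 to 9.07, adjusted p = 0.00667). The chemokine receptor CXCR4 fell 1.59-fold (adjusted p = 0.0184), but not without P1 (0.0824) or R2 (0.0511). In all, 22 different genes passed among the 86 measured genes of these lists, beside 15.1% of all genes. Because the lists were chosen with earlier results of these data known, no enrichment is read from this count. Most of the 22 lost the call when some array was left out. CCND2, FLT3, JAK3 and CDC25A passed under all 12 alternatives.

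**Figure D5:**
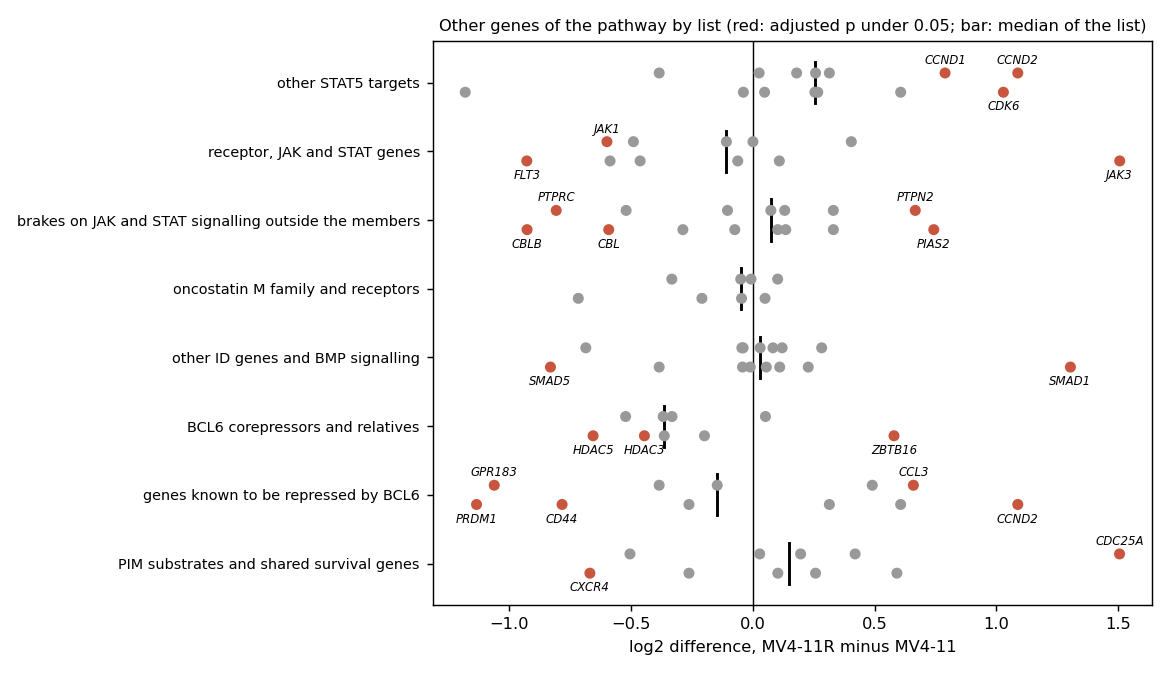
Log2 difference (horizontal axis) of each measured gene of 8 lists of pathway genes (rows), with genes at an adjusted p under 0.05 in red and named, and the median of each list as a black bar. A gene can be in more than 1 list. List medians lay between -0.36 and 0.26, and 6 of the 8 lists held both rises and falls.

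Over the 4 arrays, the genes with the profile most like BCL6, by Euclidean distance between log2 values centred on each gene's mean, were DAPL1 (distance 0.124, difference -1.89) and CAB39L (0.128, difference -1.87), both with an MV4-11R mean under the background guide. The closest to ID1 were CORO2A (0.0753) and IFIT3 (0.131), the first with a difference of 1.07, and the closest to SOCS1 were EEF1AKMT3 (0.0197) and PRMT6 (0.0320), with differences of 0.66 and 0.63.

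Array medians ran from 6.75 to 6.78, and arrays of 1 line correlated at 0.994 (MV4-11) and 0.993 (MV4-11R) across genes, against 0.968 to 0.974 between lines. Of 9 measured myeloid markers all were above the background guide in at least 1 line, the myeloid factor SPI1 at 11.44 in MV4-11 and 11.40 in MV4-11R, while LYZ and CSF1R fell and 7 did not pass. BCL6 is also a B cell gene, and of 5 measured B cell markers PAX5 rose (6.69 to 7.48), CD79B fell (8.12 to 7.04) and MS4A1 read 4.38 and 4.40, with a summed level (log2 of the summed linear signals) of 9.33 to 9.44 in MV4-11 and 9.23 to 9.35 in MV4-11R. Of 6 T and NK cell markers NKG7 rose 1.92-fold, with CD3D, CD3E and CD2 under the guide in both lines and a summed level of 10.64 to 10.71 in MV4-11 and 11.46 to 11.55 in MV4-11R. NKG7 alone averaged 10.4 in MV4-11 and 11.3 in MV4-11R, so this sum is largely that of 1 gene. Of 3 erythroid markers 0 passed in limma's fit, 0 also at an unadjusted p under 0.05, and all 3 were under the guide, and of 7 epithelial and fibroblast markers KRT18 fell, with summed levels of 10.05 to 10.08 and 9.83 to 9.94. The part of these markers in the results above was not tested.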

How the data were processed

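Values were used as deposited: log2 signals of probe sets, which the authors computed by RMA. The submitters' processing notes name Affymetrix Expression Console for this step. The log2 scale was read from the range of the values, and the genome build is not given in the sources used here. RMA compresses differences near background. Of 33297 probe sets, 19460 had 1 gene in the platform annotation, 1754 had several and 12083 were unlisted, and only the first were used. Symbols, chromosomes and gene order came from RefSeq by Entrez ID (31 unmatched). The brightest probe set was kept for each of 18417 genes, with no filter on level. limma 3.58.1 in R 4.3.3 (lmFit, eBayes, 2-sided, no block) was fitted to all genes, with 2 residual degrees of freedom, raised to 6.06 by the prior. On simulated data it recovered 27.2% of changes of 0.5 log2 units, 98% of those of 1 and 100% of those of 2. The number of arrays limits the precision. Where 1 array is left out, the residual spread comes from the other line only. Adjusted p-values of such fits hold no spread of the line with 1 array left.

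The 10 genes and the lists were chosen with earlier results of these data known. Named genes were the 10 genes, FLT3, STAT5A and STAT5B, up to 3 passing rises and 3 passing falls per list (or the largest difference where none passed), and the 2 closest profiles to each passing gene. Others were chosen after their values were seen. Some listed genes are not analysed here. The alternatives were median centring, repeated quantile normalization, the mean of probe sets, all probe sets tested, genes above the 25th percentile of level, a variance trend, a replicate block, each array left out, and the median difference of neighbours subtracted.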

Additional observations from a re-analysis of the deposited data

How the results depend on the processing

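Of 18417 genes 2772 (15.1%) passed, of the 10 STAT5 output genes 3 and of the 86 measured genes of the pathway lists 22. With all 33297 probe sets tested at once, the counts were 1164 genes, 1 of the 10 (BCL6) and 5 list genes, and SOCS1 (adjusted p = 0.0922) and ID1 (0.0938) lost their calls in limma's fit. With 1 array left out, 1588 to 2479 genes, 1 to 3 of the 10 and 9 to 28 list genes passed. The other 7 alternatives moved none of these 3 counts by over 1.5 times. BCL6 passed under all 12 alternatives, and SOCS1 and ID1 under 8 each. SOCS2 passed among genes above the 25th percentile of level (adjusted p = 0.0442) and with the replicate block (0.0465). Across alternatives, the sign of the difference turned once each for PIM2, PIM3 and CISH, which did not pass in any, and GPR183 went to 0.0018 with the neighbours' median subtracted. The replicate number was not given as a shared day or batch. Across genes, deviations of same-numbered arrays correlated at 0.262, and with the replicate block 3642 genes, 4 of the 10 and 32 list genes passed. With 2 arrays per line, differences of about the SE, 0.11 to 0.23 for the 10 genes, cannot be told from noise. Differences well above the SE could also miss the threshold, as for OSM (0.68, SE 0.20) and SOCS2 (0.52, SE 0.14) with 4 arrays. A gene that did not pass is therefore not shown to be unchanged.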

Other observations

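The STAT palindrome TTCNNNGAA was also looked for in the promoters of the pathway lists. Of 86 measured list genes 69 had a RefSeq window, and 4 of these (5.8%) held a match, beside 7.66% of all windows. They were the receptor ligand FLT3LG (difference 0.40), the deacetylase HDAC4 (-0.20), the helix-loop-helix gene ID3 (-0.04) and the receptor chain LIFR (0.05), none of which passed limma's test (adjusted p from 0.0550 to 0.888). The share is over genes with any window against all windows, and some genes have several, so the shares are only roughly comparable.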
